A study of Mus musculus with 6 samples.

Results

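The keratin gene family is described here in 344SQ, a lung adenocarcinoma cell line of the mouse, with and without the microRNA cluster miR-200b-200a-429. Its members were taken by name, as the genes whose symbol is Krt followed by a number and that had at least 1 probe set annotated to that symbol alone. This gave 48 of the 18193 genes measured in the same way, read by 61 probe sets, and each gene was followed through the probe set with the highest mean signal of the 6 arrays. The RefSeq gene table lists 54 such genes, and the other 6 were not analysed here. Of the 48, 24 lie on mouse chromosome 11 and 24 on chromosome 15, the 2 clusters in which RefSeq places the family.

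The miR-200 group is 344SQ cells transduced with a lentivirus carrying the cluster, and the control group is 344SQ cells transduced with the control vector. Each group has 3 cultures with the letters A to C, hybridized to 1 array apiece. Both groups share the same origin, a subcutaneous tumour site of 1 mouse that carried the alleles p53R172H∆g/+ and K-rasLA1/+, and both were kept as GFP-positive puromycin-selected pools. The line comes from 1 animal, and the labels do not say that cultures of a group were transduced separately. The p-values therefore measure the spread between these cultures, and a stable difference between the transduced pools cannot be told apart from an effect of the microRNAs.

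Keratins are the intermediate filament proteins of epithelial cells. Each filament is built from pairs of an acidic type I and a basic type II keratin, and the pairs in use change with the kind of epithelium: Krt8 with Krt18 in single-layered epithelia, Krt5 with Krt14 in the basal layer of stratified epithelia, other pairs above it, and hair keratins in the hair follicle. Lung epithelium and adenocarcinoma are known for Krt7, Krt8, Krt18 and Krt19. The miR-200 family is known for holding cells in an epithelial state through repression of Zeb1 and Zeb2.

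The 3 main mature microRNAs of the cluster are shown because they define the perturbation; their levels were not measured on these arrays. Sequences are those of RefSeq on GRCm38.p6 (all on the minus strand of chromosome 4), and capitals mark the seed, bases 2 to 8.
mmu-miR-200b-3p: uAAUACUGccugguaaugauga
mmu-miR-429-3p: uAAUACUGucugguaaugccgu
mmu-miR-200a-3p: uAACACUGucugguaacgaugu
The first and second share 1 seed, and miR-200a carries another.

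All values below are log2 signals per probe set after quantile normalization, given in the order A, B, C. A difference is the miR-200 mean less the control mean, followed by its standard error in limma. Adjusted p comes from the same fit, corrected over the 45037 probe sets tested, and 0.05 is the threshold. As a gauge of background, the highest value of the bacterial trp control probe sets was used, 5.28. Signals of different probe sets are not on one scale, so levels are compared along a gene and not between genes. Across the 27022 brightest probe sets, miR-200 A and control B were unlike the other cultures of their groups, and their deviations from the group means correlated at 0.71.

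The epithelial markers Cdh1 and Epcam and the mesenchymal marker Vim were bright in both groups. Of 10 fibroblast markers, 4 had a mean above the gauge in at least 1 group, as did 13692 of all 18193 genes. Cdh1, which encodes E-cadherin, read 13.46, 13.23 and 13.28 in the miR-200 cultures, against 13.16, 13.38 and 13.14 in the control cultures, and Epcam, an epithelial adhesion molecule, 9.93, 9.67 and 9.51 in the miR-200 cultures, against 9.13, 9.37 and 9.35 in the control cultures. Vim, which encodes vimentin, the intermediate filament protein of mesenchymal cells, read 13.58, 13.69 and 13.70 in the miR-200 cultures, against 13.82, 13.62 and 13.86 in the control cultures (adjusted p = 0.753). The tight junction gene Cldn7 differed between the groups, with 10.53, 9.77 and 9.55 in the miR-200 cultures, against 5.66, 5.26 and 6.21 in the control cultures. The lung lineage factor Nkx2-1 read 6.55, 7.08 and 7.01 in the miR-200 cultures, against 7.06, 6.81 and 7.36 in the control cultures. Markers of differentiated lung cells were mixed. The surfactant gene Sftpb read 6.57, 6.55 and 6.51 in the miR-200 cultures, against 12.38, 13.01 and 12.34 in the control cultures, and the protease gene Napsa 7.40, 7.51 and 7.58 in the miR-200 cultures, against 7.11, 7.30 and 7.39 in the control cultures. The Sftpb and Napsa values all lay above the gauge, whereas Sftpc and Scgb1a1 were under it in both groups. Vim and Napsa were chosen here after their values were seen.

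Of the 48 keratin genes, 1 fell past the threshold and 0 rose. The gene that fell is Krt79; over all genes, 0.671% fell, 0.275% rose and 0.945% passed in either direction. By probe set, 1 of 61 keratin probe sets passed, against 0.744% of all probe sets. With a single gene past the threshold, nothing is read from the family's share. At an unadjusted p under 0.05 in limma, 7 keratins were lower and 0 higher, 14.6% of the family, against 8.47% of all genes lower and 6.35% higher, 14.8% in either direction; the family's share in either direction was thus at that of the array. The 3 miR-200 values lay wholly below the 3 control values for 7 keratins and wholly above for 2, which is 18.8% of the family, against 12.1% and 11.4% of all genes, 23.5% together. These shares are close, as they were among genes above the gauge (26.7% of keratins and 28.0% of all genes), and nothing is read from them. With arrays centred on their medians, which moved the median of all genes to -0.07, the separated keratins were 11 lower and 0 higher. In that setting 24.5% of all genes were separated in either direction, and nothing is read from the count. In the reported setting the family's median difference was -0.07, against 0.0014 for all genes, and its median absolute difference was 0.26, against 0.25.

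**Figure D1:**
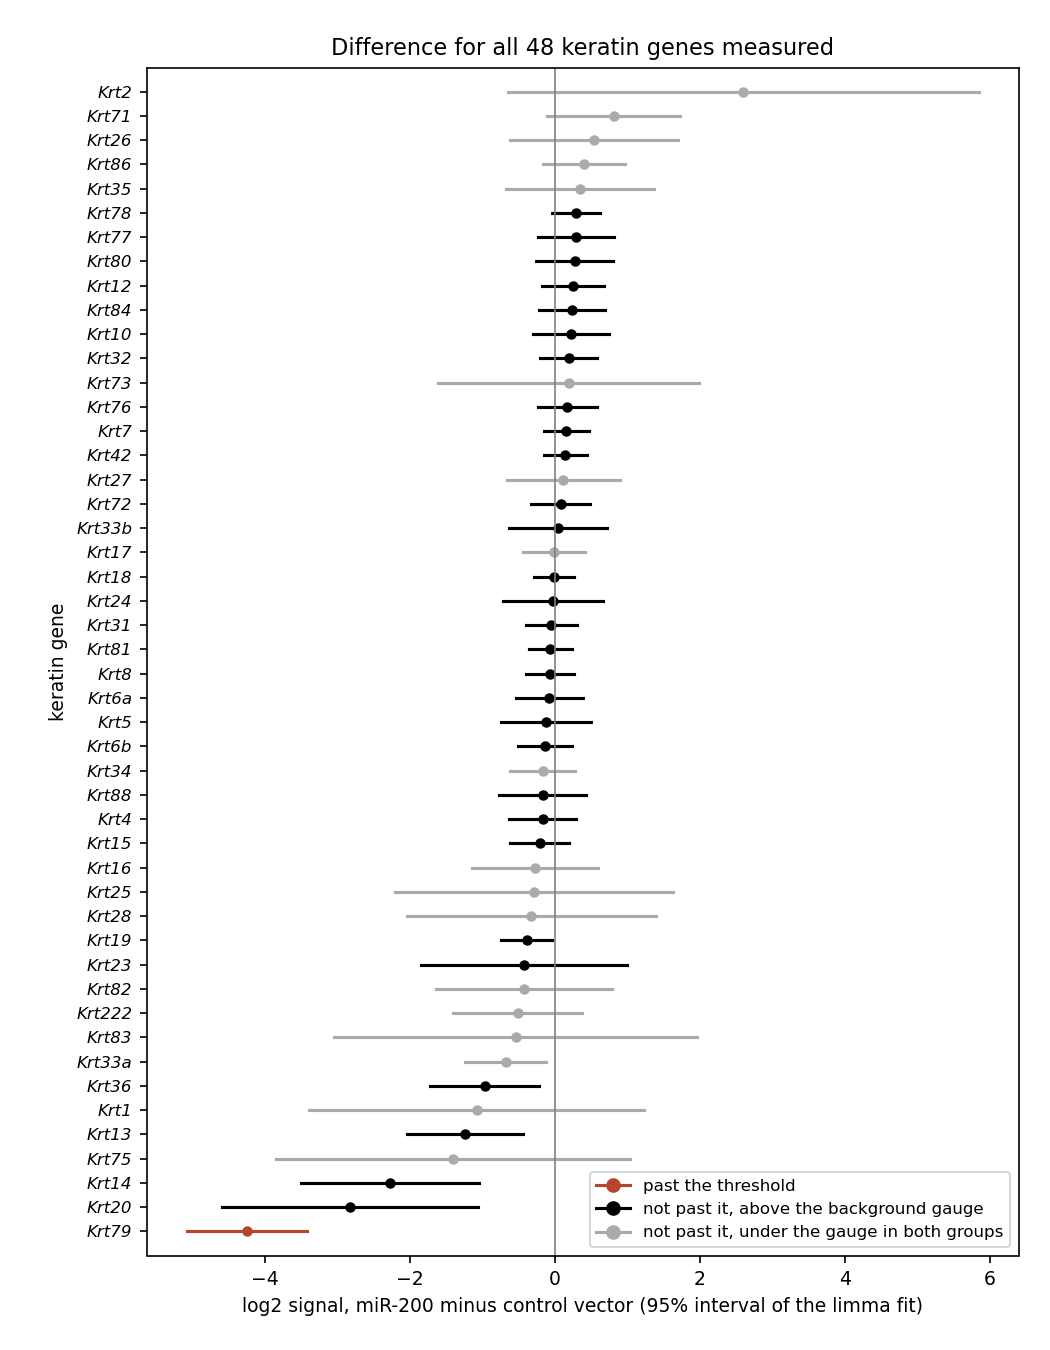
Difference in log2 signal, miR-200 minus control vector, for the 48 keratin genes (vertical axis), with points for the estimate and lines for the 95% interval of the limma fit. Krt79 is the 1 gene past the threshold; most others lie near 0, and several genes under the background gauge in both groups, Krt2 among them, have wide intervals.

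Of the 7 separated lower keratins, 6 were type I (Krt13, Krt14, Krt19, Krt20, Krt33a and Krt36) and 1 was type II (Krt79); the 2 separated higher ones were Krt42, type I, and Krt78, type II. By type, 7 of 24 type I genes (29.2%) and 2 of 22 type II genes (9.09%) were separated, on either side of the 23.5% of all genes, and the difference between the types was not tested. Of the 48 genes, 30 had a mean above the background gauge in at least 1 group, and 18 did not. Over the whole array, 13692 of 18193 genes had such a mean. Most genes thus lay above the gauge, and whether a signal above it shows expression was not tested.

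**Figure D2:**
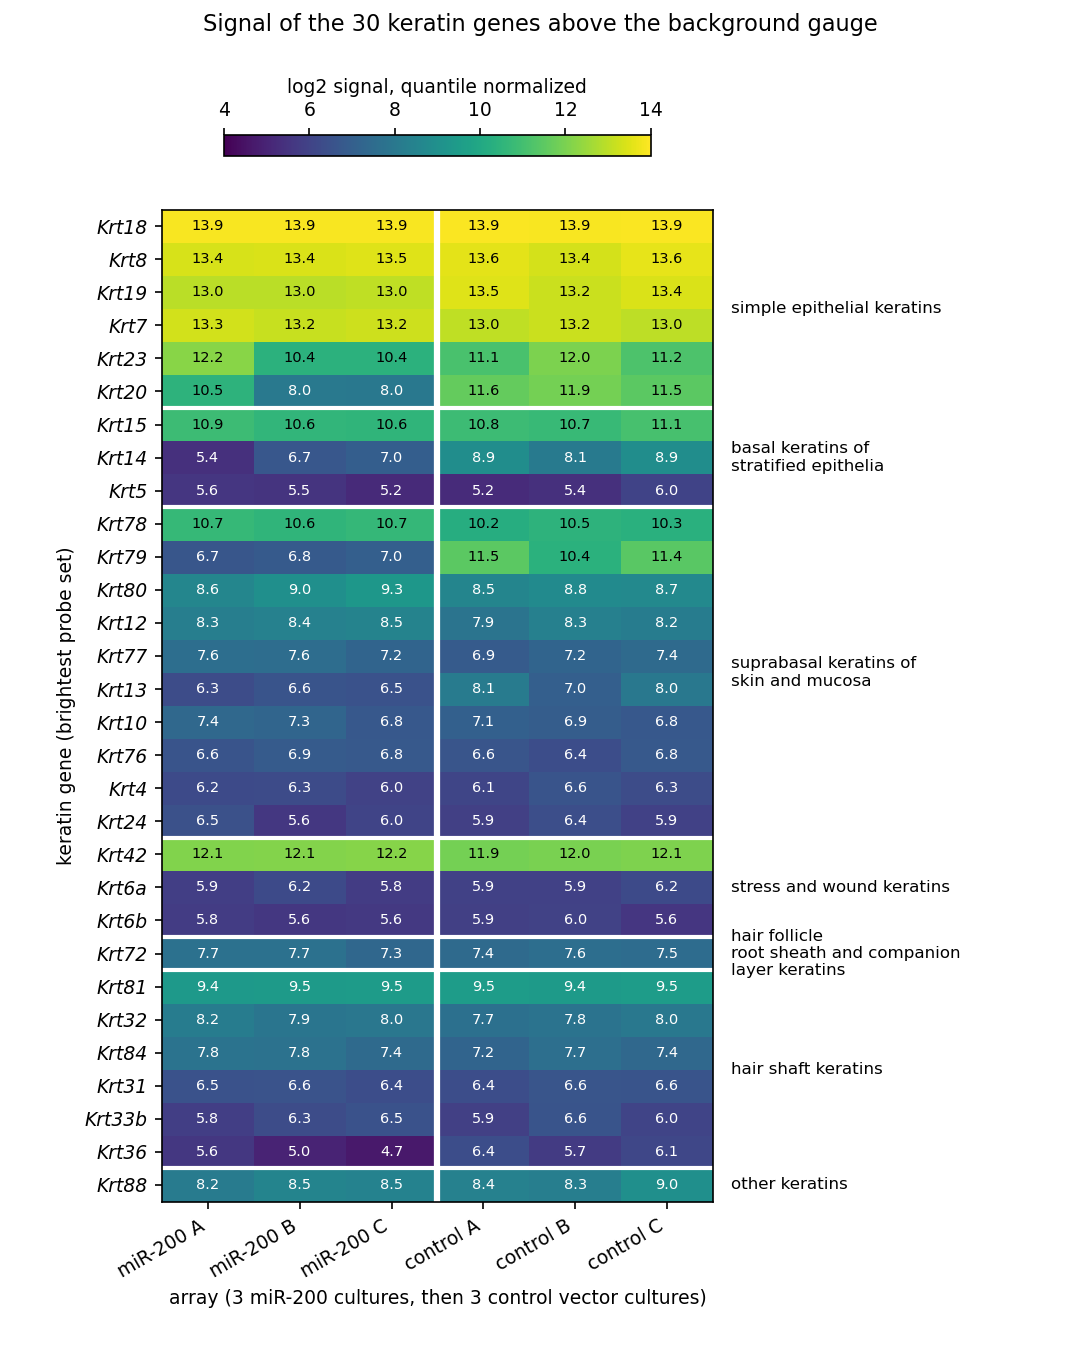
Log2 signal of the 30 keratin genes above the background gauge (rows, grouped by class) on the 3 miR-200 and 3 control vector arrays (columns); colours are to be compared along a row. Krt79, Krt20 and Krt14 darken in the miR-200 columns, while Krt18, Krt8, Krt7 and Krt19 are bright on all 6 arrays.

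Krt8 and Krt18, the partner pair of simple epithelia, did not differ detectably. Krt18 read 13.90, 13.90 and 13.92 in the miR-200 cultures, against 13.94, 13.90 and 13.94 in the control cultures. The difference was -0.02 ± 0.11 (95% interval -0.30 to 0.26, adjusted p = 0.962). Krt18 lay between 0.19 and 0.23 below the highest value of the array on each of the 6 arrays. Whether the scale can still show a rise at that height was not tested. Nor was it tested for the other bright genes Krt8, Krt7, Krt19, Cdh1 and Vim. Krt8, the type II partner of Krt18, read 13.39, 13.43 and 13.52 in the miR-200 cultures, against 13.58, 13.36 and 13.62 in the control cultures. The difference was -0.07 ± 0.13 (95% interval -0.40 to 0.26, adjusted p = 0.851). The other 2 Krt8 probe sets differed by -0.07 ± 0.14 and -0.07 ± 0.13. The 3 Krt8 probe sets thus gave nearly the same small difference, and the interval of the brightest still allows a lower level by up to 0.40 or a higher one by up to 0.26. Without control B and miR-200 A the differences of Krt18 and Krt8 were -0.03 ± 0.09 and -0.11 ± 0.10 (adjusted p = 0.879 and 0.572).

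Krt7 and Krt19, found in duct and airway epithelium together with the Krt8 and Krt18 pair, were also bright in every culture. Krt7, type II, read 13.30, 13.17 and 13.25 in the miR-200 cultures, against 13.05, 13.18 and 13.01 in the control cultures, a difference of 0.16 ± 0.12 (95% interval -0.15 to 0.46, adjusted p = 0.636). Krt19, type I, read 12.96, 12.98 and 13.03 in the miR-200 cultures, against 13.53, 13.18 and 13.43 in the control cultures. All 3 miR-200 values of Krt19 lay below the control values, but the difference of -0.39 ± 0.14 did not pass (adjusted p = 0.315), nor did it without control B and miR-200 A (-0.48 ± 0.10, adjusted p = 0.157).

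Krt20, a type I keratin of intestinal and urothelial lining cells, had the second largest difference above the gauge. Krt20 read 10.47, 8.05 and 7.99 in the miR-200 cultures, against 11.62, 11.90 and 11.49 in the control cultures. Every miR-200 value lay below every control value, and miR-200 A was far above the other 2 miR-200 cultures. The means were 8.84 ± 1.42 in the miR-200 cultures and 11.67 ± 0.21 in the control cultures (SD, n = 3 each). With all 6 arrays the difference of -2.83 ± 0.71 did not pass (adjusted p = 0.182). Without control B and miR-200 A it was -3.54 ± 0.11 and passed (adjusted p = 0.0473), as it did without miR-200 A alone (-3.66 ± 0.17, adjusted p = 0.0139) and with array weights (-3.33 ± 0.47, adjusted p = 0.0326). Krt20 passed in no other setting. Leaving out miR-200 A removes the Krt20 value that stood apart in its group, which narrows the spread by itself.

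Krt23, a type I keratin next to Krt20 on chromosome 11, followed the 2 arrays that stood apart. It read 12.22, 10.42 and 10.44 in the miR-200 cultures, against 11.14, 12.03 and 11.19 in the control cultures. The highest value of each group was on miR-200 A and on control B, and the groups overlapped (difference -0.43 ± 0.57, adjusted p = 0.788). Without those arrays the difference was -0.75 ± 0.09 and did not pass (adjusted p = 0.105).

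**Figure D3:**
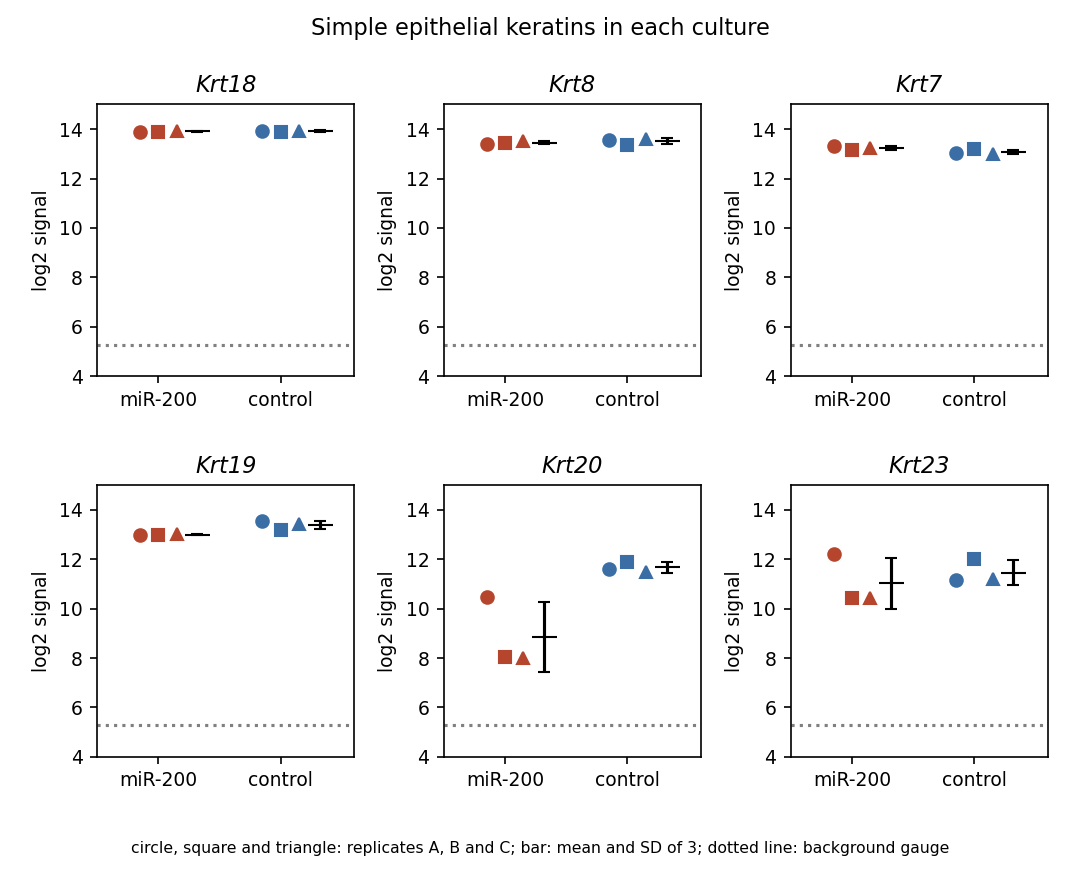
Log2 signal of the 6 simple epithelial keratins in each miR-200 (left) and control vector (right) culture, with mean and SD of 3 and the background gauge as a dotted line. Krt18, Krt8, Krt7 and Krt19 sit near 13 to 14 in all cultures, Krt20 is lower in the 3 miR-200 cultures, and Krt23 is highest on miR-200 A and control B.

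Krt79 was the keratin that fell. It is a type II keratin known in mouse skin from the upper hair follicle, where it marks the cells that open the hair canal. Krt79 read 6.68, 6.83 and 7.04 in the miR-200 cultures, against 11.49, 10.39 and 11.43 in the control cultures. The groups were separated by more than 3 log2 units, and the spread within the miR-200 cultures was small. The means were 6.85 ± 0.18 in the miR-200 cultures and 11.10 ± 0.62 in the control cultures (SD, n = 3 each), so the gene was 19.1-fold lower (log2 difference -4.25 ± 0.33, 95% interval -5.08 to -3.42, limma adjusted p = 0.0130). Both means lay above the background gauge, and the gene has 1 probe set. Without control B and miR-200 A the difference was -4.53 ± 0.13 and passed (adjusted p = 0.0473). The call was lost when any 1 of the other 4 arrays was left out (differences from -4.35 to -4.04, adjusted p from 0.0739 to 0.0968).

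On chromosome 15 RefSeq places Krt79 in the order Krt4, Krt79, Krt78, Krt8, Krt18. Krt4, a mucosal keratin, read 6.24, 6.27 and 5.99 in the miR-200 cultures, against 6.08, 6.62 and 6.32 in the control cultures (adjusted p = 0.733). Krt78, a keratin of stratified epithelia, read 10.68, 10.56 and 10.68 in the miR-200 cultures, against 10.22, 10.48 and 10.34 in the control cultures. Its 3 miR-200 values all lay above the control values without passing (0.29 ± 0.13, adjusted p = 0.398). Neither direct neighbour of Krt79 passed; the difference between the neighbours was not tested.

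The 250 bases before the annotated start are shown for Krt79 and Krt20, the keratins with the largest differences above the gauge, and for Krt8, close to Krt79 on the chromosome and nearly level between groups. Sequences are from RefSeq on GRCm38.p6, all on the minus strand, at chr15:101940325-101940574 for Krt79, chr11:99438154-99438403 for Krt20 and chr15:102004343-102004592 for Krt8. Capitals mark 2 motifs searched on both strands: CACCTG, an E-box form that Zeb and Snail factors are known to bind, and TATAAA, the TATA box.
Krt79: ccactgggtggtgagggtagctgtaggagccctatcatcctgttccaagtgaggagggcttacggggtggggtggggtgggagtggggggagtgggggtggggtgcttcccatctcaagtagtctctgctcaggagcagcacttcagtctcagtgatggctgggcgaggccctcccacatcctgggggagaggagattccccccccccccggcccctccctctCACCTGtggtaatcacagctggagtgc
Krt20: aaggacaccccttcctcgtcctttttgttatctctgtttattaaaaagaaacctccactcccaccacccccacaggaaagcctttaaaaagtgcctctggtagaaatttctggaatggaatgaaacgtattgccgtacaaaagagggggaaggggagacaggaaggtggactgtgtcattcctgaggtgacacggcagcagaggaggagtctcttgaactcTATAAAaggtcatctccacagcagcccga
Krt8: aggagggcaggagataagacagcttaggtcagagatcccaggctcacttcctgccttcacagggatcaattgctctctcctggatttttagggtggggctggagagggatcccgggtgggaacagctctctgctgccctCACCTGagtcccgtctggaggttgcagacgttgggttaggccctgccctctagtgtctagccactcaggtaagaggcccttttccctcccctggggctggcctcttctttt
CACCTG occurred once in the Krt79 window, its first base 27 bases before the start, and once in the Krt8 window, 111 bases before it. TATAAA occurred in the Krt20 window, 29 bases before the start. The 2 motifs do not overlap each other in these windows. Over all 32851 windows of this length, 17.2% held the E-box letters and 12.4% the TATA box. Of 33 keratin windows, covering 32 of the 48 genes, 11 held CACCTG and 16 held TATAAA. The E-box letters were thus in the window of Krt79, which fell, and in that of Krt8, which did not pass. A match describes these letters and is not evidence of binding.

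Krt14, the type I keratin of basal cells, read lower in every miR-200 culture. Its brightest probe set read 5.38, 6.71 and 6.99 in the miR-200 cultures, against 8.91, 8.09 and 8.89 in the control cultures, means of 6.36 ± 0.86 in the miR-200 cultures and 8.63 ± 0.47 in the control cultures (SD, n = 3 each). The lowest value, on miR-200 A, was just above the background gauge. The difference of -2.27 ± 0.49 did not pass (adjusted p = 0.1398), but did with array weights; without control B and miR-200 A it was -2.06 ± 0.14 (adjusted p = 0.0667). The 3 probe sets of Krt14 disagreed: the second brightest differed by 0.10 ± 0.14 with overlapping groups, and the dimmest by -1.73 ± 0.54 with separated groups and a miR-200 mean under the gauge. The brightest belongs to the array's class of probe sets in which some probes may also match other transcripts.

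The other basal keratins did not pass. Krt5, its type II partner, read 5.57, 5.49 and 5.19 in the miR-200 cultures, against 5.23, 5.37 and 6.005 in the control cultures, close to the gauge on every array (difference -0.12 ± 0.25, adjusted p = 0.873). Krt15, a basal and hair follicle stem cell keratin, read 10.87, 10.60 and 10.56 in the miR-200 cultures, against 10.85, 10.74 and 11.08 in the control cultures (difference -0.21 ± 0.16, adjusted p = 0.622). Both had overlapping groups. Without control B and miR-200 A, when 57.6% of all genes were separated, Krt15 was separated and lower (-0.39 ± 0.13, adjusted p = 0.250).

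Krt13, the type I keratin that pairs with Krt4 above the basal layer of mucosal epithelia, showed a smaller difference in the same direction. It read 6.34, 6.61 and 6.52 in the miR-200 cultures, against 8.14, 7.04 and 7.998 in the control cultures. The groups were separated, with control B closest to the miR-200 values, and the difference of -1.24 ± 0.32 did not pass (adjusted p = 0.194; -1.51 ± 0.11 and adjusted p = 0.0705 without control B and miR-200 A). Its dimmer probe sets differed by -0.45 ± 0.23 and -0.49 ± 0.21. Of the 12 suprabasal keratins of skin and mucosa, 1 fell (Krt79) and 0 rose, against 0.671% and 0.275% of all genes. Separated groups were seen for 25% of the class, against 23.5% of all genes, and nothing is read from these shares.

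**Figure D4:**
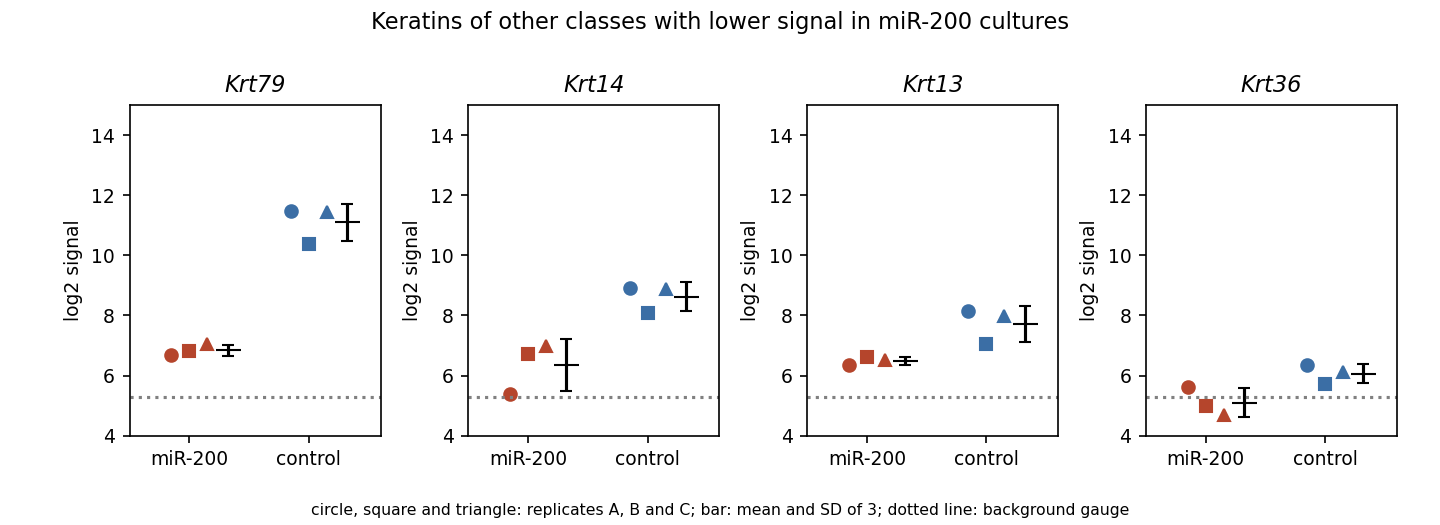
Log2 signal of Krt79, Krt14, Krt13 and Krt36 in each miR-200 (left) and control vector (right) culture, with mean and SD of 3 and the background gauge as a dotted line. All 4 have separated groups. Krt79 passed the threshold and the other 3 did not. The miR-200 mean of Krt36 lies under the gauge, with miR-200 A above it and miR-200 B and C below it.

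The remaining suprabasal keratins above the gauge differed by less than 0.30 and had overlapping groups with all 6 arrays. Krt80, found in many epithelia, read 8.59, 8.999 and 9.28 in the miR-200 cultures, against 8.53, 8.80 and 8.71 in the control cultures. Krt12, the keratin of the cornea, read 8.29, 8.38 and 8.48 in the miR-200 cultures, against 7.86, 8.35 and 8.20 in the control cultures. The dimmer Krt12 probe set had means under the gauge in both groups. A Krt12 signal above the gauge thus rests on the brighter probe set alone, and which transcripts that probe set reads was not tested. Krt77, known from sweat gland ducts, read 7.61, 7.58 and 7.21 in the miR-200 cultures, against 6.87, 7.22 and 7.44 in the control cultures. These 3 had slightly higher miR-200 means, with differences of 0.27 ± 0.21, 0.25 ± 0.17 and 0.29 ± 0.21 and adjusted p of 0.634, 0.579 and 0.604. Without control B and miR-200 A, when 57.6% of all genes were separated, the groups of Krt80 and Krt12 were separated too. Their differences of 0.52 ± 0.16 and 0.41 ± 0.17 did not pass (adjusted p = 0.230 and 0.307). Krt10, which pairs with Krt1 in the epidermis, read 7.40, 7.26 and 6.76 in the miR-200 cultures, against 7.05, 6.95 and 6.76 in the control cultures. Krt76, a keratin of the palate and oral mucosa, read 6.61, 6.89 and 6.80 in the miR-200 cultures, against 6.63, 6.37 and 6.78 in the control cultures. Krt24 read 6.49, 5.62 and 6.04 in the miR-200 cultures, against 5.89, 6.40 and 5.92 in the control cultures. None of these 3 passed either (adjusted p = 0.690, 0.694 and 0.986). Krt76 was also separated and higher without control B and miR-200 A (0.14 ± 0.11, adjusted p = 0.554).

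Krt1 and Krt2, the type II keratins of the epidermis, were under the gauge in both group means. Krt2 is singled out here after its values were seen. It read 0.67, 4.83 and 5.52 in the miR-200 cultures, against 0.59, 1.19 and 1.43 in the control cultures, above the gauge of 5.28 on miR-200 C alone. With all arrays the difference was 2.60 ± 1.30 (adjusted p = 0.444). Without miR-200 A it was 4.09 ± 0.36 and passed (adjusted p = 0.0372), and without both control B and miR-200 A it was 4.15 ± 0.44 and did not (adjusted p = 0.0921).

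The genes grouped here as stress and wound keratins were near background apart from Krt42. Placing Krt42 in that group was a choice made here and not a result. Krt6a read 5.85, 6.23 and 5.77 in the miR-200 cultures, against 5.93, 5.92 and 6.23 in the control cultures, and Krt6b read 5.78, 5.63 and 5.65 in the miR-200 cultures, against 5.88, 5.97 and 5.60 in the control cultures. Neither differed past the threshold (adjusted p = 0.893 and 0.741). Krt16 and Krt17, their type I partners, were under the gauge in both groups. For Krt42, a mouse keratin close to Krt17 in the same cluster, the 2 probe sets disagreed. The bright one read 12.10, 12.13 and 12.17 in the miR-200 cultures, against 11.92, 11.97 and 12.08 in the control cultures, separated and higher, whereas the dim one read 3.23, 4.28 and 4.97 in the miR-200 cultures, against 5.44, 5.04 and 5.24 in the control cultures, separated and lower. Neither passed (adjusted p = 0.662 and 0.372), so no direction is given for Krt42, whose bright probe set is also of the class that may match other transcripts.

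Hair keratins were mostly dim and none passed. Of 12 hair shaft keratins, 6 were above the gauge in at least 1 group, and of 8 keratins of the root sheath and companion layer, 1 was (Krt72). Krt36, a type I keratin of the tongue papillae and nail, read 5.62, 4.99 and 4.68 in the miR-200 cultures, against 6.36, 5.72 and 6.13 in the control cultures. Its groups were separated, with a miR-200 mean of 5.10 under the gauge, and the difference of -0.97 ± 0.30 did not pass (adjusted p = 0.256). Krt81, of the hair cortex, read 9.36, 9.45 and 9.50 in the miR-200 cultures, against 9.54, 9.44 and 9.54 in the control cultures (difference -0.07 ± 0.12, 95% interval -0.36 to 0.23). Krt32, of the hair cuticle, read 8.21, 7.89 and 7.97 in the miR-200 cultures, against 7.68, 7.82 and 7.998 in the control cultures. Krt84, a type II keratin of the tongue papillae, read 7.80, 7.76 and 7.44 in the miR-200 cultures, against 7.23, 7.66 and 7.39 in the control cultures. Their groups overlapped (adjusted p = 0.654 and 0.622). Krt31 read 6.50, 6.57 and 6.37 in the miR-200 cultures, against 6.37, 6.63 and 6.60 in the control cultures, and Krt33b 5.84, 6.33 and 6.52 in the miR-200 cultures, against 5.90, 6.61 and 6.05 in the control cultures. These hair cortex keratins overlapped too (adjusted p = 0.913 and 0.966). Without control B and miR-200 A, when 57.6% of all genes were separated, Krt33b was separated and higher (0.45 ± 0.13, adjusted p = 0.217). Krt84 was then separated and higher as well, and Krt81 separated and lower. Krt72, of the inner root sheath, read 7.74, 7.74 and 7.35 in the miR-200 cultures, against 7.44, 7.62 and 7.52 in the control cultures (adjusted p = 0.871). Krt88, to which no class was assigned, read 8.16, 8.53 and 8.45 in the miR-200 cultures, against 8.40, 8.26 and 8.99 in the control cultures (adjusted p = 0.799).

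The 18 keratins under the gauge in both groups had differences from -1.41 to 2.60, none past the threshold, and 4 of them were listed at 0 on at least 1 array as deposited. Of all 4501 genes under the gauge in both groups, 7 passed. Krt75, of the companion layer, singled out after its values were seen, differed by -1.41 ± 0.98 with all arrays (adjusted p = 0.585) and by -2.998 ± 0.319 without control B and miR-200 A (adjusted p = 0.0920). Among the 18, with all 6 arrays, only Krt33a had separated groups (lower, adjusted p = 0.277). At the edge of the gauge, Krt5 and Krt6b lay just above it, with highest group means of 5.54 and 5.82, and Krt17 and Krt35 just below it, with 5.05 and 5.01.

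Proteins that carry or bind keratin filaments were counted in the same fit. Of 15 genes that link keratin filaments to desmosomes and other structures, 0 passed, 1 had separated groups higher and 3 lower, 26.7% of the list against 23.5% of all genes, and the median difference was -0.10. Pkp3, a desmosomal plakophilin, read 8.49, 8.24 and 8.27 in the miR-200 cultures, against 6.70, 7.196 and 7.03 in the control cultures, higher in every miR-200 culture and just short of the threshold (1.35 ± 0.18, adjusted p = 0.0510). The desmosomal cadherin Dsg2 read 10.20, 9.43 and 9.10 in the miR-200 cultures, against 10.98, 11.61 and 10.93 in the control cultures (-1.59 ± 0.35, adjusted p = 0.142), and some of its other probe sets differed little or in the other direction. Dsc2, of the same kind, read 7.39, 5.62 and 5.33 in the miR-200 cultures, against 7.75, 8.02 and 7.61 in the control cultures (-1.68 ± 0.57, adjusted p = 0.284). Dsc2 passed without miR-200 A, and without both miR-200 A and control B it was -2.21 ± 0.16 (adjusted p = 0.0677). Within this list, separated genes thus lay on both sides.

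Of 18 other intermediate filament genes, 0 passed, 1 was separated higher and 2 lower, 16.7% against 23.5% of all genes (median -0.03). Iffo2, an intermediate filament family orphan, was the separated higher one (0.85 ± 0.19, adjusted p = 0.153), and Synm, which encodes synemin, and Iffo1 the lower ones (-0.91 ± 0.28 and -0.70 ± 0.22, adjusted p = 0.251 and 0.265). Of 23 genes for keratin binding, modification and turnover, 0 passed, with 2 separated higher and 4 lower, 26.1% against the same 23.5% (median 0.05). Padi2 and Padi1, peptidyl arginine deiminases that citrullinate proteins including keratins, differed by 1.58 ± 0.39 and 0.99 ± 0.38, and the kinase gene Prkce by -0.78 ± 0.21, with adjusted p of 0.182, 0.334 and 0.197.

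Of 33 transcription factors known to act on keratin genes, 0 passed, with 3 separated higher and 8 lower (median -0.0063). These are 9.09% and 24.2% of the list, against 11.4% and 12.1% of all genes, and the difference was not tested. Grhl3, an epidermal differentiation factor, read 7.43, 4.69 and 4.71 in the miR-200 cultures, against 9.50, 10.62 and 9.32 in the control cultures, a difference of -4.20 ± 0.85 (adjusted p = 0.124); without control B and miR-200 A it was -4.72 ± 0.11 and passed (adjusted p = 0.0473). Klf4, a factor of gut and skin epithelial differentiation, read 12.38, 11.51 and 11.36 in the miR-200 cultures, against 13.01, 13.17 and 13.05 in the control cultures (-1.33 ± 0.29, adjusted p = 0.145). Klf4 passed without miR-200 A, and without both arrays it was -1.60 ± 0.11 (adjusted p = 0.0650). Like Krt20, Krt23, Dsg2 and Dsc2, Grhl3 and Klf4 had their highest miR-200 value on miR-200 A, an array that stood apart over the brightest probe sets. The order is thus not particular to these factors, and leaving out miR-200 A narrows such a spread by itself. Gata3, a luminal and hair follicle factor, read 2.87, 0.35 and 2.33 in the miR-200 cultures, against 5.71, 4.38 and 4.32 in the control cultures, under the gauge on all but control A (-2.95 ± 0.76, adjusted p = 0.192).

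**Figure D5:**
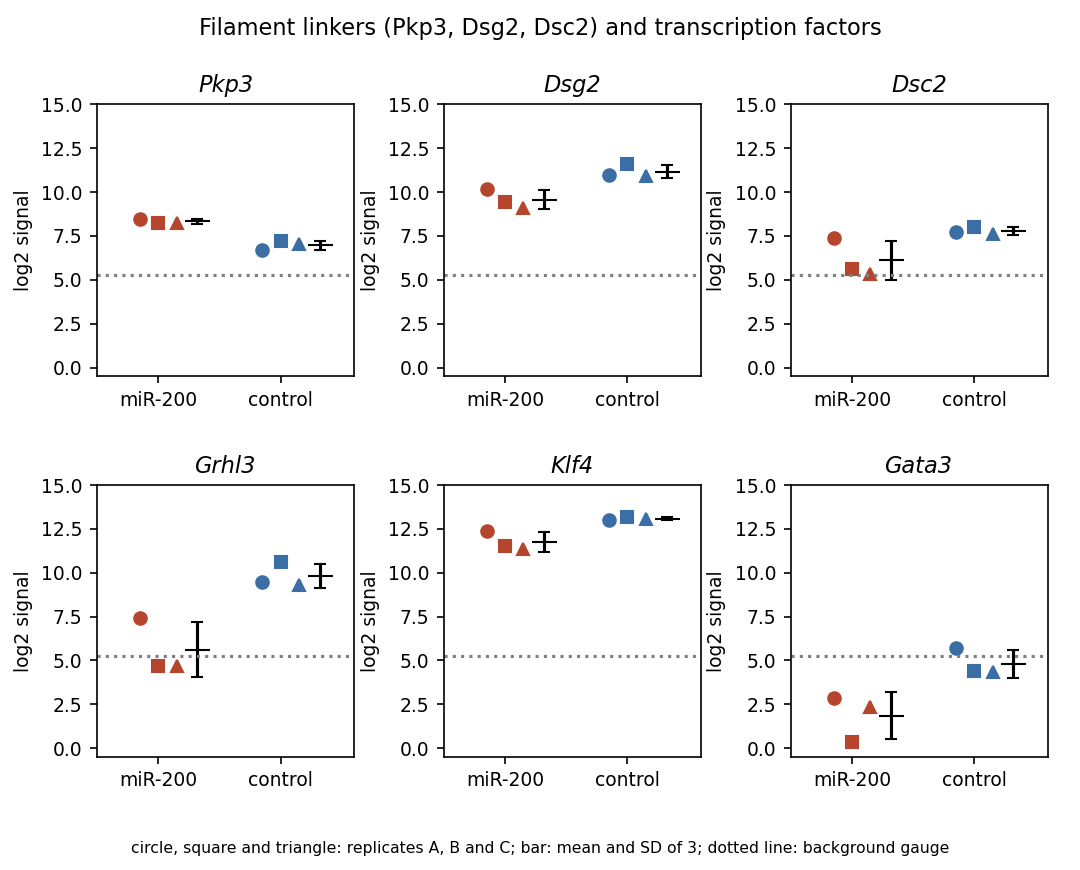
Log2 signal of 3 filament linkers (Pkp3, Dsg2, Dsc2) and 3 transcription factors (Grhl3, Klf4, Gata3) in each miR-200 (left) and control vector (right) culture, with mean and SD of 3 and the background gauge as a dotted line. Pkp3 is higher and the other 5 are lower in all 3 miR-200 cultures; none passed the threshold.

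Markers of cell types that could carry the lower keratins were set beside them. Of 19 stratified squamous markers, 0 passed, 4 were separated higher and 0 lower, 21.1% and 0% of the list against 11.4% and 12.1% of all genes. Their summed linear signal ranged from 10521 to 15710 in the miR-200 cultures and from 8029 to 9094 in the control cultures. That order rested on Sprr1a: without it the sum over the other 18 ranged from 2884 to 3505 in the miR-200 cultures and from 3989 to 4451 in the control cultures. Such sums add probe sets that are not on one scale. Trp63, the basal cell factor, read 6.10, 5.65 and 5.85 in the miR-200 cultures, against 5.17, 5.76 and 6.12 in the control cultures (adjusted p = 0.819). Serpinb5, Krtdap and Sprr1a, known from squamous epithelium, differed by 2.77 ± 0.39, 2.64 ± 0.71 and 1.06 ± 0.23 (adjusted p = 0.0589, 0.207 and 0.139). Krtdap was dim: without control B and miR-200 A its means were 3.38 in the miR-200 and 0.11 in the control cultures, under the gauge. Other members went the other way without control B and miR-200 A, among them Ivl (involucrin), Anxa8 and Sbsn, separated and lower, with differences of -1.11 ± 0.22, -1.06 ± 0.10 and -0.74 ± 0.19 (adjusted p = 0.151, 0.0831 and 0.187). These 3 were chosen after their values were seen, none passed, and 57.6% of all genes were separated in that setting. No direction is read for the list, and its part in the lower Krt79, Krt14 and Krt13 values was not tested. Of 10 fibroblast markers, 0 had separated groups, against 23.5% of all genes. Their summed signals were 434 to 493 in the miR-200 cultures and 421 to 462 in the control cultures. Of 8 blood and endothelial markers, 1 was separated, 12.5% of the list against 23.5% of all genes. It was Csf1r, higher (0.45 ± 0.14, adjusted p = 0.264). The sums of the list were 1671 to 2208 in the miR-200 cultures and 1387 to 1755 in the control cultures. Of 10 lung and epithelial markers, Sftpb fell (-6.03 ± 0.22, adjusted p = 0.00249) and Cldn7 rose (4.24 ± 0.36, adjusted p = 0.0162). Over all genes, 0.671% fell and 0.275% rose. In this list 3 were separated higher and 1 lower, 40% against 23.5% of all genes. Its sums were 38122 to 40082 in the miR-200 cultures and 43307 to 45738 in the control cultures. Nothing is read from the shares of these marker lists. In pooled cultures, fewer cells with a transcript and less transcript per cell cannot be told apart.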

How the data were processed

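Total RNA of 6 cultures was labelled with biotin and hybridized to Affymetrix mouse arrays, 1 array per culture. The deposited values are log2 signals per probe set, 45101 per array; that the base is 2 follows from the values, and the authors' summary and normalization methods are not given in the sources used here. Deposited array medians ranged from 6.32 to 6.41, and the number of arrays, 3 per group, limits the precision. Quantile normalization between arrays used limma 3.58.1 (R 4.3.3), 64 control probe sets were left out, and the rest were fitted with lmFit and eBayes, two-sided, without covariates, with Benjamini-Hochberg adjustment. Symbols come from the platform annotation, updated by gene number with the RefSeq table of GRCm38.p6; all 48 keratins matched. An exact permutation test of 3 against 3 cannot go below 0.1 and was not used. The fit was tested on simulated data.

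Keratins above the background gauge or past the threshold were named with their values, and of each other list the members past the threshold and at most the 3 separated ones with the largest absolute change, plus Cdh1, Epcam, Nkx2-1 and Trp63. Members, gauge, lists and alternatives were chosen with earlier results of these data known. Listed symbols that no probe set read alone were not analysed here. Alternatives were the deposited values, median centring, a filter on the dimmest 40% of probe sets, averaging over probe sets of 1 gene, array weights, a robust fit with a mean-variance trend, the letter as a replicate block, and leaving out each array or both arrays that stood apart.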

Additional observations from a re-analysis of the deposited data

How the results depend on the processing

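Krt79 kept its direction under all 14 alternatives. Krt79 was the 1 keratin past the threshold as deposited, after centring, without the dimmest 40% of probe sets, after averaging a gene's probe sets and with the variance trend; 3 keratins passed with array weights (Krt14, Krt20 and Krt79), 2 without control B and miR-200 A (Krt20 and Krt79) and 0 with the replicate block. Without 1 array, 0 to 3 passed, the 3 being Krt2, Krt20 and Krt79 without miR-200 A. For Krt2 and Krt20, miR-200 A held the miR-200 value that stood apart, so leaving it out narrows the spread by itself. The 172 genes called in all became 476 without the dimmest 40%, 268 with the mean of probe sets, 494 with the variance trend, 606 with array weights, 60 without both arrays and 0 with the block (limma; 1720 genes at an unadjusted p under 0.05), and 16 to 185 without 1 array, lowest without control A. Keratins with separated groups, 9 in all, numbered 26 without both arrays and 11 to 18 without 1 array, where fewer arrays separate more easily. The share of all genes separated was then 57.6% without both and 29.1% to 42.2% without 1 array. Nothing is read from these counts. With arrays centred on their medians, separated keratins were 0 higher and 11 lower, against 2 and 7, and 24.5% of all genes were separated. Of the linkers, filament genes, modifiers and transcription factors, 0 passed in the reported setting, 2 without the dimmest 40% (Grhl3 and Pkp3), 1 with the mean of probe sets (Pkp3), 3 with the variance trend (Dsg2, Klf4 and Pkp3), 6 with array weights (these with Grhl3, Cdx2 and Iffo2), 1 without both arrays (Grhl3) and 0 to 3 without 1 array. The letters A to C were not shown to pair the cultures (deviations correlated at -0.58, -0.67 and 0.43), and the block leaves few residual degrees of freedom. Among 419 results of named keratins under alternatives, 14 changed sign, 0 of them with a call: Krt31 (0.021) and Krt24 (0.044) as deposited, Krt42 (-0.47) with the mean of its probe sets, and, over the fits without 1 array, Krt31 (-0.13 to 0.0063), Krt33b (-0.10 to 0.26), Krt24 (-0.24 to 0.19), Krt6a (-0.22 to 0.024), Krt5 (-0.27 to 0.11) and Krt88 (-0.31 to 0.051). The cause was not tested. Low signal limits the 18 keratins under the gauge.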
